A study of Mus musculus with 13 samples.

Results

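The TGF-beta ligands and the proteins that keep them latent were followed as 9 genes chosen by name (Tgfb1, Tgfb2, Tgfb3, Ltbp1, Ltbp2, Ltbp3, Ltbp4, Lrrc32 and Nrros) out of 48709 mouse genes counted. All 9 were measured, and all 9 passed the filter on low counts, which kept 16328 genes for the test. The data are bulk RNA-seq of the enamel organ, the epithelium that deposits and hardens enamel, dissected from lower incisors of mice on postnatal day 11. Het is the group of 5 mice with 1 mutated copy of Tgfbr2 (G357W) and 1 normal copy, the genotype used to model Loeys-Dietz syndrome, which affects connective tissue and vessels. WT is the group of 8 wild-type littermates with normal copies only. The labels name no other allele or treatment, and each library was taken as 1 mouse. The comparison asks whether a changed type II TGF-beta receptor goes with a changed supply of its ligands and of their latency proteins.

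TGF-beta is made as a long precursor that is cut by furin-like proteases, after which the amino-terminal propeptide stays wrapped around the mature ligand and keeps it from its receptors. This small latent complex is usually bonded to a latent TGF-beta binding protein (LTBP), which carries it to fibrillin microfibrils and fibronectin in the matrix. On some cell surfaces the propeptide is bonded instead to LRRC32 (also called GARP), known from regulatory T cells, platelets and endothelium, or to NRROS (also called LRRC33), known from macrophages and microglia. Release of the ligand by alpha-v integrins depends on an arginine-glycine-aspartate motif in the propeptide. The free ligand then binds the type II receptor encoded by Tgfbr2, which recruits the type I receptor and leads to phosphorylation of SMAD proteins.

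The coding stretches that set the 3 ligands apart in this release step follow, with 18 bases on each side. Capitals mark the codons for arginine, glycine and aspartate in Tgfb1 and Tgfb3, and the codons aligned to those of Tgfb3 in Tgfb2. Positions are on GRCm38 with the GENCODE M21 annotation, and the sequences read 5′ to 3′ along the transcript.
Tgfb1: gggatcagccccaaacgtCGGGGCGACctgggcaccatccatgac
Tgfb2: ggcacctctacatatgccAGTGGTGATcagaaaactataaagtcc
Tgfb3: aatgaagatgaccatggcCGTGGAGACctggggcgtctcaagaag
The Tgfb1 stretch lies at chr7:25696995-25697168 on the plus strand and runs across the junction of exons 4 and 5. The Tgfb2 stretch lies in exon 5 at chr1:186630735-186630779 on the minus strand, and the Tgfb3 stretch in exon 5 at chr12:86062147-86062191 on the minus strand. The reading frames of Tgfb1 and Tgfb3 each held 1 run of codons for this motif, and that of Tgfb2 held 0.

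The cleavage-site codons that end the propeptide follow further along, and capitals mark the 4 codons of the basic site in each gene.
Tgfb1: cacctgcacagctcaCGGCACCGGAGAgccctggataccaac
Tgfb2: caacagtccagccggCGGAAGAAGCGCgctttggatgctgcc
Tgfb3: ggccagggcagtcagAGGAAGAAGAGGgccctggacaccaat
They lie at chr7:25697220-25697261 (plus strand), chr1:186630621-186630662 (minus strand) and chr12:86062039-86062080 (minus strand), all in exon 5. After this site each gene has 112 codons for the mature ligand. Over those codons the bases were 68.8% identical between Tgfb1 and Tgfb2, 73.5% between Tgfb1 and Tgfb3 and 70.8% between Tgfb2 and Tgfb3. The propeptide codons with the signal peptide, which include the integrin stretch, were less alike, with 51.4%, 51.4% and 57.8% identical bases for the same pairs.

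Library totals were between 18852382 and 26508410 counts. Column names carry a number before a hyphen (1, 4 or 5), called the library prefix here, whose meaning the sources leave unstated. There were 1 Het and 3 WT libraries with prefix 1, 2 Het and 3 WT with prefix 4, and 2 Het and 2 WT with prefix 5. The 12 dental epithelium markers summed to between 221382 and 332578 CPM (counts per 1e6 library counts, TMM-scaled) in Het libraries and between 201606 and 344496 in WT libraries, and all were detected. The sums for 12 mesenchyme markers were 4505 to 10062 CPM in Het and 5548 to 12203 in WT, for 12 macrophage and other immune markers 82.5 to 160.4 in Het and 112.8 to 150.8 in WT, and for 9 endothelial markers 103.7 to 138.8 in Het and 101.3 to 151.5 in WT. In such mixed tissue, fewer cells of a type and less RNA per cell cannot be told apart. Gene counts do not separate the alleles of Tgfbr2, so they do not check the genotype of a library.

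Tgfb3 was the main ligand transcript in these enamel organ libraries. They also held transcripts of mesenchyme, immune cells and endothelium, so this rank cannot be assigned to the epithelium alone. On the RPKM scale (CPM divided by exon length in kilobases), which allows levels of different genes to be compared, it averaged 9.23 ± 3.06 in Het and 9.04 ± 2.73 in WT (SD, n = 5 and n = 8). Tgfb2 averaged 3.25 ± 0.68 RPKM in Het and 3.35 ± 0.56 in WT, and Tgfb1 1.10 ± 0.16 in Het and 1.31 ± 0.22 in WT. Of the summed RPKM of the 3 ligands, Tgfb3 took 67.1% ± 4.68 in Het and 65.4% ± 3.42 in WT. The share of Tgfb2 was 24.5% ± 3.75 in Het and 24.8% ± 2.38 in WT, and that of Tgfb1 was 8.36% ± 1.12 in Het and 9.72% ± 1.25 in WT. These shares depend on the length used. Over 13 libraries Tgfb1 averaged 1.23 RPKM with the union of annotated exons and 2.41 with the longest annotated transcript, while Tgfb3 had 9.11 with either. The order Tgfb3, Tgfb2, Tgfb1 was the same in both genotypes, and the ligand ranked first in RPKM and the ligand ranked last both carry the integrin motif codons.

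Among the LTBPs, Ltbp4 and Ltbp3 were the most abundant and Ltbp2 the least. Ltbp4 averaged 3.33 ± 1.45 RPKM in Het and 3.77 ± 0.99 in WT, and Ltbp3, an LTBP whose loss in people causes short stature with thin or missing enamel, 2.92 ± 0.86 in Het and 2.77 ± 0.55 in WT. Ltbp1 averaged 0.988 ± 0.27 RPKM in Het and 1.17 ± 0.20 in WT. Ltbp2, the LTBP that is known not to bind latent TGF-beta, averaged 0.413 ± 0.17 RPKM in Het and 0.614 ± 0.22 in WT. The cell-surface carriers differed from each other, with Nrros at 2.54 ± 0.26 RPKM in Het and 2.05 ± 0.67 in WT, and Lrrc32 at 0.725 ± 0.27 in Het and 0.767 ± 0.28 in WT.

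**Figure D1:**
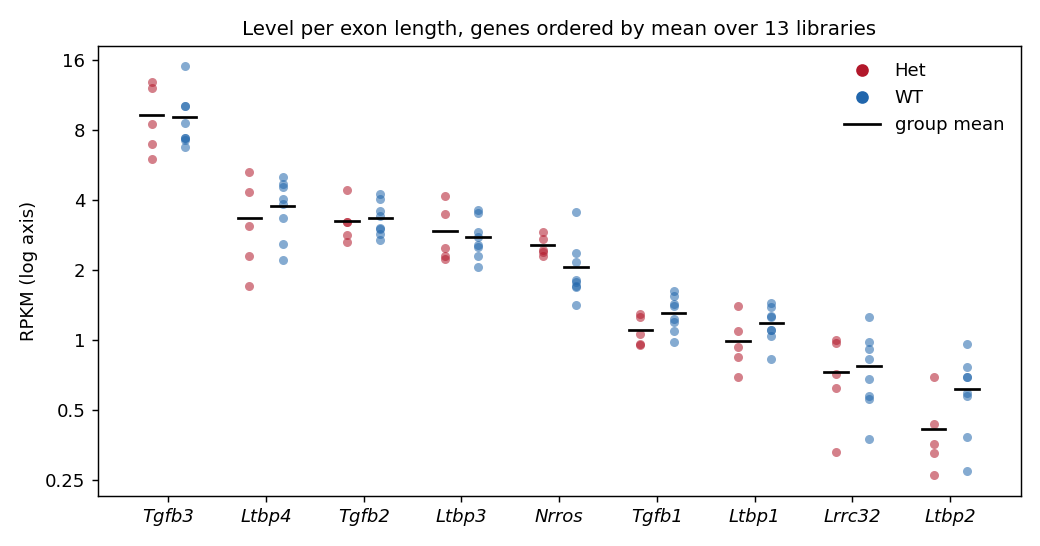
Level of each gene in RPKM on a log axis, ordered by the mean over 13 libraries; each point is 1 library (Het left, WT right) and black bars are group means. Tgfb3 lies above all other genes in every library, from 5.95 to 15.0 RPKM, and Ltbp2 has the lowest mean.

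Over all 13 libraries the order was Tgfb3 (9.11 RPKM), Ltbp4 (3.60), Tgfb2 (3.31), Ltbp3 (2.83), Nrros (2.24), Tgfb1 (1.23), Ltbp1 (1.10), Lrrc32 (0.751) and Ltbp2 (0.537). Tgfb3 did not overlap in range with Ltbp4, the next gene, and was above it in 13 of 13 libraries. Every other pair of neighbours overlapped in range, although Nrros was above Tgfb1 in 12 of 13 libraries and Ltbp1 above Lrrc32 in 12 of 13. With the longest annotated transcript as the length, Ltbp3 (4.48 RPKM) moved ahead of Ltbp4 (4.32) and Tgfb2 (3.75), so the order of these 3 depends on the gene model, while Tgfb3 stayed first and Ltbp2 last.

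None of the 9 genes differed between Het and WT in the test across all genes (edgeR's quasi-likelihood test with Benjamini-Hochberg adjustment over 16328 genes, threshold 0.05). Over all genes 0.0857% passed that threshold, 0.0429% as higher and 0.0429% as lower in Het. At an unadjusted p under 0.05, 0 of the 9 genes passed with edgeR, where 6.9% of all genes did and 2.72% were also higher in Het. With DESeq2 1 of the 9 passed at that level, Ltbp2 (unadjusted p = 0.0412, adjusted p = 0.615). Of 27 alternative fits, DESeq2 included, Ltbp2 was under 0.05 unadjusted in 8, Ltbp1 in 2 and Nrros in 2, and the other 6 genes in 0. These fits reuse most or all of the same libraries, so their counts are not independent of each other. The share of all genes at that level was not computed for them, so these counts have no background to be read against. Log2 fold changes, Het over WT, were negative for 6 genes and positive for 3, with a median of -0.08, beside a median of -0.0044 and 50.9% negative over all genes tested. The Het and WT ranges overlapped for all 9 genes, and over all genes the ranges were apart for 0.49%.

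**Figure D2:**
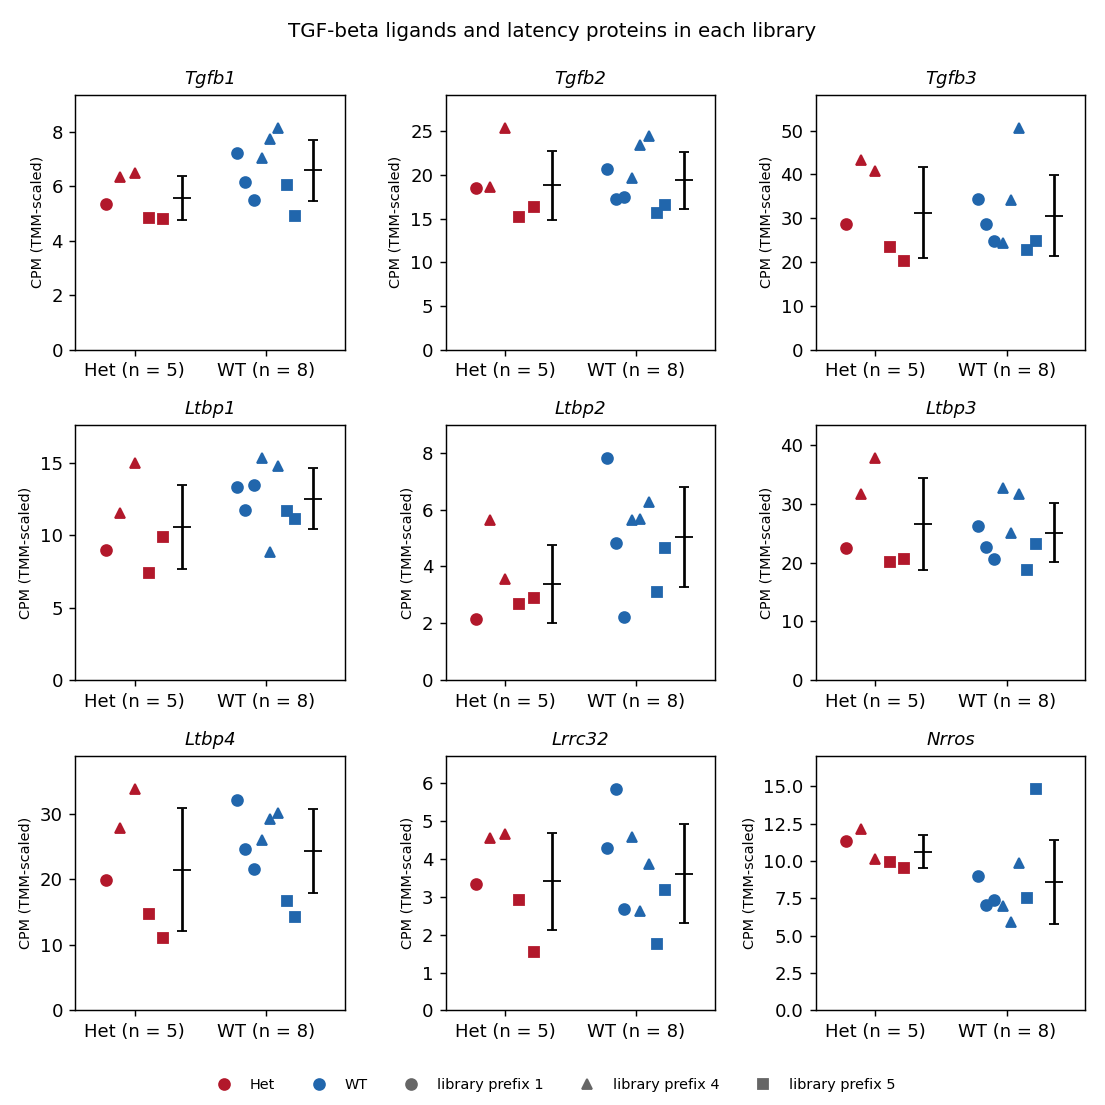
CPM of each gene in every library, Het left and WT right, with marker shape for the library prefix and black bars for mean ± SD. The groups overlap in every panel, and the prefix 5 squares are the lowest libraries for Ltbp4 in both genotypes.

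Of the ligands, Tgfb1 (chromosome 7, 25687002 to 25705077) encodes the form known best from bone, platelets and immune cells. It had 5.34, 6.32, 6.49, 4.84 and 4.79 CPM in the Het libraries 1-2, 4-2, 4-5, 5-5 and 5-6, an order of libraries kept below, and 4.92 to 8.14 CPM in WT with a median of 6.59. All Het libraries lay below the WT median, within the WT range or just under it. The log2 fold change was -0.24 ± 0.16 (SE; 95% interval -0.57 to 0.08; edgeR adjusted p = 0.786), and within prefixes 1, 4 and 5 the difference was -0.22, -0.25 and -0.17. The sign was the same in each prefix, but the share of all genes for which this holds was not computed.

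Tgfb2 (chromosome 1, 186622792 to 186705989) encodes the ligand known for epithelial and heart cushion development. It had 18.5, 18.6, 25.4, 15.2 and 16.4 CPM in Het and 15.6 to 24.5 CPM in WT, with a median of 18.6. The groups overlapped almost wholly. At -0.04 ± 0.14 (SE; edgeR adjusted p = 0.972), the log2 fold change had the narrowest 95% interval of the 9, -0.33 to 0.25. Within prefixes 1, 4 and 5 the difference was 0.0058, -0.04 and -0.03. A short antisense gene, Gm29491, shares 124 exon bases with Tgfb2 and had at most 6 counts in a library.

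Tgfb3 (chromosome 12, 86056745 to 86079041) encodes the ligand needed for fusion of the palate. It had 28.6, 43.3, 40.8, 23.4 and 20.1 CPM in Het and 22.8 to 50.6 CPM in WT, with a median of 26.8. The high Het libraries were those of prefix 4, and so was the highest WT library. Het over WT, the log2 fold change was 0.03 ± 0.20 (SE; 95% interval -0.39 to 0.46; edgeR adjusted p = 0.984). It was 0.27 within prefix 4, and -0.02 and -0.13 within prefixes 1 and 5. No exon base is shared with Ttll5, a tested gene that overlaps Tgfb3 on the other strand, and 163 are shared with Gm37804, which had at most 2 counts in a library. Gm48008, also on the other strand, shares 257 exon bases with Tgfb3 and was not among the genes counted.

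Ltbp1 (chromosome 17, 75005568 to 75392512) encodes the LTBP first found with latent TGF-beta. It had 8.97, 11.6, 15.0, 7.39 and 9.89 CPM in Het and 8.87 to 15.3 CPM in WT, with a median of 12.5. In prefixes 1 and 5 every Het library lay below every WT library, and in prefix 4 they were mixed. A prefix holds only 1 or 2 Het and 2 or 3 WT libraries. The share of all genes so ordered within a prefix was not computed. The log2 fold change was -0.25 ± 0.16 (SE; 95% interval -0.59 to 0.09; edgeR adjusted p = 0.791), with differences of -0.51, 0.06 and -0.41 in prefixes 1, 4 and 5. Without Het 4-5, its highest Het library, the log2 fold change was -0.40 (unadjusted p = 0.0222, edgeR adjusted p = 0.753), and without Het 5-5, its lowest, it was -0.14 (unadjusted p = 0.398, edgeR adjusted p = 0.946). Without prefix 4 it was -0.48, and without prefix 5 it was -0.12.

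Ltbp2 (chromosome 12, 84783212 to 84876532), which encodes a microfibril protein of the eye's ciliary zonule among other tissues, had the largest difference of the 9. It had 2.14, 5.65, 3.56, 2.67 and 2.90 CPM in Het and 2.23 to 7.80 CPM in WT, with a median of 5.23. Only Het 4-2 lay above the WT median. Its log2 fold change was -0.56 ± 0.27 (SE; 95% interval -1.14 to 0.01; unadjusted p = 0.0538, edgeR adjusted p = 0.731), and the differences in prefixes 1, 4 and 5 were -1.01, -0.38 and -0.44. These values rest on 46 to 134 counts per Het library and 53 to 154 per WT library. Without Het 4-2 the log2 fold change was -0.83 (unadjusted p = 0.00783, edgeR adjusted p = 0.436), without Het 1-2 it was -0.43 (unadjusted p = 0.152, edgeR adjusted p = 0.973), and without WT 1-1 it was -0.45 (unadjusted p = 0.114, edgeR adjusted p = 0.882). With the prefix as a term it was -0.58 ± 0.26 (unadjusted p = 0.0372, edgeR adjusted p = 0.482). An antisense gene, D030025P21Rik, shares 764 exon bases with Ltbp2, and the libraries are unstranded, so reads there cannot be told apart; at most 12 counts per library were assigned to that gene.

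Ltbp3 (chromosome 19, 5740904 to 5758532) had 22.5, 31.6, 37.8, 20.1 and 20.7 CPM in Het and 18.7 to 32.7 CPM in WT, with a median of 24.1. Libraries of prefix 4 were the highest in Het, and 2 of the 3 WT libraries of prefix 4 were the highest in WT. For this gene the log2 fold change was 0.08 ± 0.16 (SE; 95% interval -0.26 to 0.43; edgeR adjusted p = 0.943). The differences in prefixes 1, 4 and 5 were -0.03, 0.22 and -0.03.

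Ltbp4 (chromosome 7, 27305136 to 27337692) encodes an LTBP needed for elastic fibre assembly. It had 19.98, 27.9, 33.8, 14.8 and 11.0 CPM in Het and 14.2 to 32.2 CPM in WT, with a median of 25.4. It followed the prefix more than the genotype, with 11.0 to 16.7 CPM over the 4 libraries of prefix 5, 19.98 to 32.2 over the 4 of prefix 1 and 26.0 to 33.8 over the 5 of prefix 4. Over 13 libraries the log2 fold change was -0.18 ± 0.24 (SE; 95% interval -0.68 to 0.33; edgeR adjusted p = 0.906), and -0.13 ± 0.12 with the prefix as a term (adjusted p = 0.766). It was -0.0106 without Het 5-6, -0.39 without Het 4-5 and -0.52 without prefix 4 (unadjusted p = 0.0524, edgeR adjusted p = 0.857). The differences in prefixes 1, 4 and 5 were -0.37, 0.11 and -0.27.

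**Figure D3:**
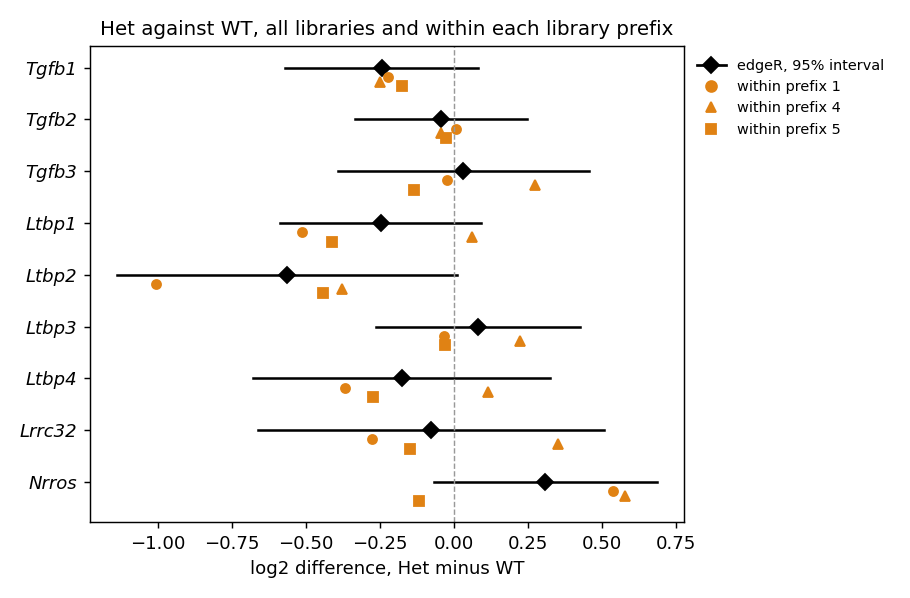
Log2 difference, Het minus WT, for each gene; black diamonds and lines are the edgeR estimate with its 95% interval over 13 libraries, and orange marks are differences of mean log2 CPM within each prefix. Every interval includes 0, and Tgfb1 and Ltbp2 are the genes with negative differences in all 3 prefixes. Prefix 1 holds 1 Het library, and the share of all genes with such signs was not computed.

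Among the cell-surface carriers, Lrrc32 (chromosome 7, 98489283 to 98502181) had 3.35, 4.55, 4.65, 2.91 and 1.54 CPM in Het and 1.75 to 5.84 CPM in WT, with a median of 3.52. Het and WT spanned nearly the same range. With a log2 fold change of -0.08 ± 0.28 (SE; 95% interval -0.66 to 0.51; edgeR adjusted p = 0.973), Lrrc32 had the widest interval of the 9, on 35 to 147 counts per library. The difference was -0.28, 0.35 and -0.15 in prefixes 1, 4 and 5. Of the cells known to carry it, T cells had 6 markers that summed to between 1.85 and 4.30 CPM in Het and between 2.61 and 4.07 CPM in WT. Most of that sum was Trac, a T cell receptor gene found in every library with up to 71 counts, and the coreceptor gene Cd4 reached 29. Foxp3, which defines regulatory T cells, reached 4 counts at most, and Cd3d, Cd3e and Cd3g at most 5, with Cd3e at 0 in all 5 Het libraries. The 6 platelet and megakaryocyte markers summed to between 2.55 and 10.4 CPM in Het and between 4.79 and 8.75 CPM in WT. The part of T cells and of platelets in the level of Lrrc32 was not tested.

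Nrros (chromosome 16, 32142785 to 32165594) had the highest positive difference, with 11.3, 12.2, 10.2, 9.93 and 9.54 CPM in Het and 5.91 to 14.8 CPM in WT, with a median of 7.45. The Het libraries lay close together and above 6 of the 8 WT libraries. The log2 fold change was 0.31 ± 0.18 (SE; 95% interval -0.07 to 0.69; unadjusted p = 0.102, edgeR adjusted p = 0.765), and the differences in prefixes 1, 4 and 5 were 0.54, 0.58 and -0.12. Without WT 5-3, the highest library of all, the log2 fold change was 0.47 ± 0.14 (unadjusted p = 0.00329, edgeR adjusted p = 0.367), and without the prefix 5 libraries it was 0.55. It was 0.17 without the prefix 4 libraries (unadjusted p = 0.452) and 0.22 without those of prefix 1 (unadjusted p = 0.363), so its size varied with the libraries kept. Markers of macrophages and other immune cells averaged 2.98 ± 0.38 log2 CPM in Het and 3.07 ± 0.12 in WT, and with their mean in the model, a fit tried once the data had been seen, the log2 fold change was 0.36 ± 0.18 (edgeR adjusted p = 0.669).

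Within the LTBP family the share of Ltbp3 was 37.2%, 36.4%, 37.1%, 40.1% and 43.3% of summed RPKM in Het and 28.7% to 40.0% in WT, with a median of 32.7%. Each Het library lay above 6 of the 8 WT libraries or more. Ltbp2 had 5.53% ± 1.56 in Het and 7.27% ± 1.74 in WT, Ltbp1 13.3% ± 2.46 in Het and 14.5% ± 2.85 in WT, and Ltbp4 42.4% ± 5.96 in Het and 44.8% ± 5.33 in WT (SD, n = 5 and n = 8). The ranges of the groups overlapped for each share, and these shares were not tested. They also depend on the length used, as Ltbp3 averaged 2.83 RPKM over 13 libraries with the union of exons and 4.48 with the longest transcript.

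**Figure D4:**
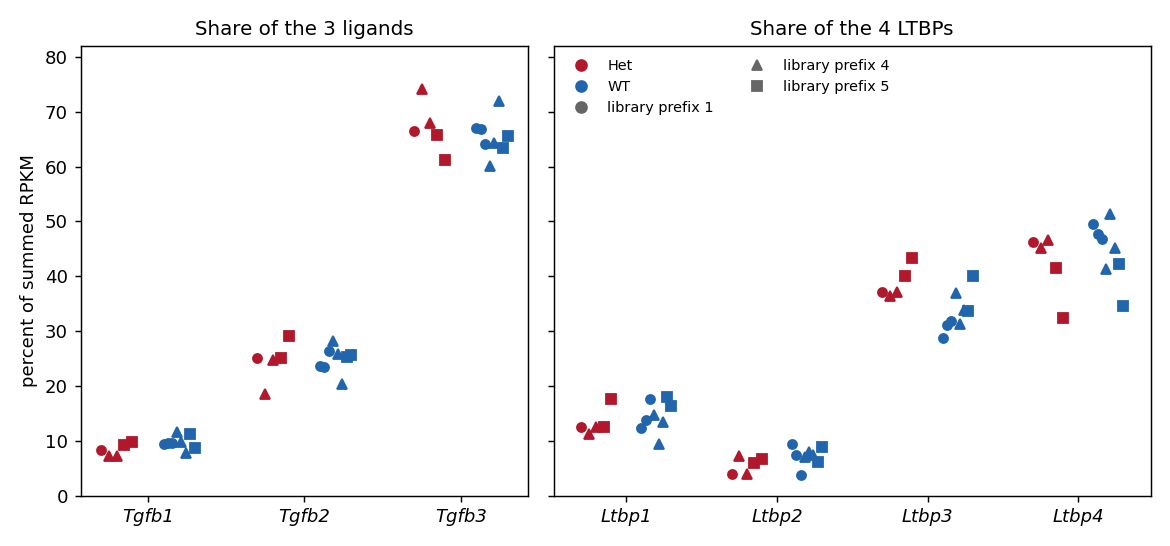
Percent of the summed RPKM of the 3 ligands (left) and of the 4 LTBPs (right) taken by each gene in every library, Het left of WT for each gene, marker shape for the library prefix. Tgfb3 takes 60.1% to 74.2% of the ligand sum, and the Het libraries span 36.4% to 43.3% for Ltbp3.

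Most of the 9 genes varied together from library to library, Nrros least. Over the 13 libraries, with log2 CPM centred within genotype, Pearson's r was positive for 28 of 28 pairs without Nrros, with a median of 0.67 and a range from 0.27 to 0.87, and for 5 of 8 pairs with Nrros, with a median of 0.12. Centred within prefix as well, the median was 0.39 over the 28 pairs, with a lowest value of -0.14, and 0.33 over the 8 pairs with Nrros. Part of the likeness of the other genes, and of the apartness of Nrros, thus went with the prefix. These values describe the same 13 libraries for every pair and carry no test.

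With the prefix left out of account, Tgfb3 was higher over the 13 libraries where markers of mesenchyme and endothelium were higher. Its level also went with the prefix, with a mean of 38.6 CPM in prefix 4, 29.1 in prefix 1 and 22.8 in prefix 5. Each of the 9 genes was correlated with the mean log2 CPM of 4 marker lists, which makes 36 relations, and 6 had a Benjamini-Hochberg adjusted p under 0.05 for Pearson's r in a two-sided permutation test with 100000 resamples. For Tgfb3 and mesenchyme, Pearson's r was 0.88 (permutation p = 2.00e-05, adjusted p = 0.000720) and Spearman's rho 0.83 (permutation p = 0.000850, adjusted p = 0.0153), and r was 0.83 without Het 5-6 and WT 4-4, the libraries farthest from the median. For Tgfb3 and endothelium, r was 0.82 (permutation p = 0.000710, adjusted p = 0.0128) and rho 0.87 (permutation p = 0.000120, adjusted p = 0.00432), with r = 0.87 without WT 5-1 and WT 5-3. Centred within genotype and prefix, r was 0.74 for mesenchyme (permutation p = 0.00447) and 0.69 for endothelium (permutation p = 0.00719). The permutation p adjusted over the 36 relations was 0.129 for each, so neither passed once the prefix was taken into account. The libraries of 1 prefix are too few (4 or 5) for a correlation of their own.

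Ltbp4 had r of 0.76 with mesenchyme (permutation p = 0.00128, adjusted p = 0.0154; rho 0.73, permutation p = 0.00633, adjusted p = 0.0456) and of 0.78 with endothelium (permutation p = 0.00240, adjusted p = 0.0216; rho 0.79, permutation p = 0.00196, adjusted p = 0.0235). Without the 2 farthest libraries r was 0.67 and 0.73. Centred within genotype and prefix it was 0.34 and 0.54, and the low prefix 5 libraries form a group of their own for this gene. The other relations past the threshold were Tgfb1 with mesenchyme (r = 0.70, permutation p = 0.00515, adjusted p = 0.0371; rho 0.68, permutation p = 0.0124, adjusted p = 0.0559), which was 0.43 without Het 5-6 and WT 4-4 and 0.18 centred, and Lrrc32 with endothelium (r = 0.72, permutation p = 0.00628, adjusted p = 0.0377; rho 0.68, permutation p = 0.0140, adjusted p = 0.0559), which was 0.74 without WT 5-1 and WT 5-3 and 0.44 centred. Nrros with the macrophage and other immune markers gave r = 0.20 (permutation p = 0.514, adjusted p = 0.771) and rho = 0.45 (permutation p = 0.128, adjusted p = 0.289), so its level was not shown to follow them. By Spearman's rho alone, Tgfb2 with mesenchyme also passed (rho 0.74, permutation p = 0.00566, adjusted p = 0.0456; r = 0.66, permutation p = 0.0113, adjusted p = 0.0580). No relation passed for skeletal muscle markers. The part of these cell types in the differences between genotypes was not tested beyond the fits with a marker mean as a term.

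**Figure D5:**
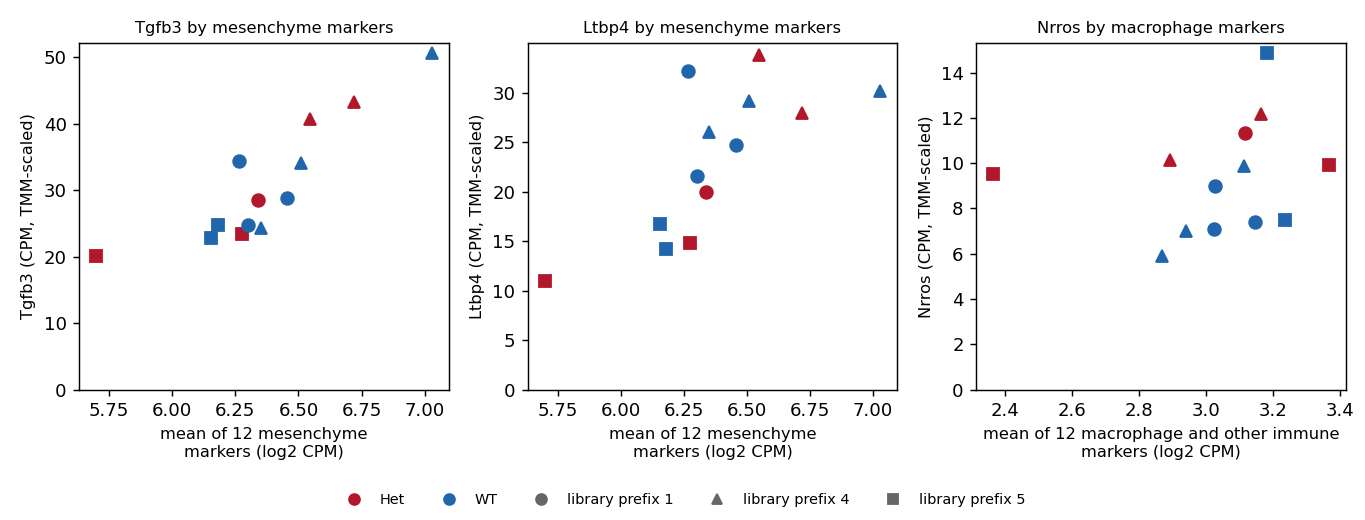
CPM of Tgfb3 and Ltbp4 by the mean log2 CPM of 12 mesenchyme markers, and of Nrros by the mean of 12 macrophage and other immune markers, in each library (colour for genotype, shape for prefix). Tgfb3 is lowest in Het 5-6 (20.1 CPM) and highest in WT 4-4 (50.6 CPM), the libraries with the lowest and highest mesenchyme mean.

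The tested genes whose library pattern was most like that of each ligand or carrier, by Pearson's r of log2 CPM centred within genotype over 13 libraries, were chosen among 13708 named genes and are given without a test. Tgfb1 was most like Tfeb (0.95) and Arsa (0.94), Tgfb2 most like Zbtb4 (0.94) and Ltbr (0.93), and Tgfb3 most like Flt4 (0.96) and Cdan1 (0.95). Ltbp1 was most like Prex1 (0.90) and Mir5125 (0.89), and Ltbp2 most like Rspo1 (0.92) and Slc39a5 (0.89). Ltbp3 was most like Dgcr2 (0.96) and Rapgef1 (0.95), and Ltbp4 most like Cnn2 (0.98) and Vat1 (0.98). Lrrc32 was most like Nes (0.94) and H2-Q4 (0.90), and Nrros most like Ndufa7 (0.88) and Cenpc1 (0.88). H2-Q4 belongs to a family of near-identical genes and Mir5125 is a very short locus, so their counts are uncertain. The highest of so many values are large by selection, and libraries of the same prefix share part of the pattern.

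The steps up and downstream of these genes were read from the same fit. Of 19 genes that process or release latent TGF-beta (furin-like proteases, alpha-v integrins and matrix proteases), 0 passed in either direction, 5 had positive and 14 negative log2 fold changes, 2 had an unadjusted p under 0.05, and the median was -0.14, where 50.9% of all genes were negative and 6.9% had such a p. The smallest p were those of Itgb3, the beta subunit of an alpha-v integrin (-0.42 ± 0.17, SE; edgeR adjusted p = 0.641), and Plg, the precursor of plasmin (-1.22 ± 0.54; 0.699), which was scarce at a mean log2 CPM of -1.38 in Het and -0.27 in WT. Of 23 microfibril and matrix partners, 0 passed and 0 had an unadjusted p under 0.05. In this list 7 were positive and 16 negative, with a median of -0.06, beside 50.9% negative over all genes. The smallest p were those of Bgn (-0.30 ± 0.19, SE, edgeR adjusted p = 0.782) and Fbln1 (-0.31 ± 0.19, edgeR adjusted p = 0.786).

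Of 12 receptors and SMADs, 0 passed, 1 had an unadjusted p under 0.05 (6.9% over all genes), and the signs were split evenly. Tgfbr2 itself had 8.96 ± 1.21 RPKM in Het and 7.69 ± 1.08 in WT, about the level of Tgfb3, and its log2 fold change, Het over WT, was 0.22 ± 0.11 (SE; edgeR adjusted p = 0.741), and the inhibitory Smad7 had -0.40 ± 0.16 (0.635). Of 19 genes that respond to TGF-beta, 0 passed, 6 were positive and 13 negative, the median was -0.07, and 4 had an unadjusted p under 0.05 (50.9% and 6.9% over all genes), led by Pmepa1 (-0.54 ± 0.19; edgeR adjusted p = 0.514) and Snai1 (-0.47 ± 0.17; 0.566). Of 11 other family ligands and antagonists, 8 were tested, while Mstn, Nodal and Lefty2 were below the filter. Among the 8, 0 passed, 1 had an unadjusted p under 0.05, 3 were positive and 5 negative, with a median of -0.06. The shares over all genes to set beside these counts are again 6.9% with such a p and 50.9% negative. Lefty1 was at 0.60 ± 0.20 (SE, edgeR adjusted p = 0.476) and Gdf11 at -0.37 ± 0.19 (edgeR adjusted p = 0.749). Neither the ligands and their carriers nor these lists held a gene past the threshold. For the ligands and carriers, the intervals above give the size of difference each gene could still have. For the genes of the lists no interval is given.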

How the data were processed

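Unstranded Nextera XT libraries were read as 75-base single reads in 2 runs, per the labels' protocols. STAR 2.5.2a and build GRCm38 are named in the submitters' processing notes, with the counting tool not given in the sources used here. For 48733 features the authors deposited unnormalized counts, of which 24 spike-in and transgene features (at most 0.000177% of a library's counts) were left out. The authors also deposited a normalized signal (CPM with TMM scaling, per the file name), equal to the counts times 1 factor per library and used for no test. Columns give the genotype but no replicate number of the labels. No library pair was near-identical (lowest chi-square per gene 11.4 over 78 pairs).

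Genes kept by filterByExpr (count minimum 10) were tested with edgeR 4.0.16 in R 4.3.3 (TMM, robust glmQLFit, glmQLFTest); the test was checked on simulated data. Log2 CPM used a prior count of 2, and RPKM the union of annotated exons. Alternatives were other scaling factors (RLE, upper quartile), other filters, DESeq2 1.42.0, limma-voom (limma 3.58.1), the prefix or, added after seeing the data, a marker mean as a term, and libraries left out. Named genes are the 9, Tgfbr2, the 2 smallest p of each list and the 2 most similar genes; Foxp3, Cd3e and overlapping genes were named after their values were seen. The genes, lists and tests were chosen with earlier results of these data known.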

Additional observations from a re-analysis of the deposited data

How the results depend on the processing

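In all 27 alternatives 0 of the 9 genes passed the adjusted threshold. Tgfb1, Ltbp1, Ltbp2 and Nrros kept the sign of their log2 fold change in every one, while genes near 0 changed sign: without prefix 5 the values were 0.028 for Tgfb2, 0.0033 for Ltbp4 and 0.079 for Lrrc32, without prefix 4 -0.17 for Tgfb3 and -0.070 for Ltbp3, without prefix 1 0.10 for Lrrc32, with the prefix as a term 0.0080 for Lrrc32, and with the mesenchyme mean as a term 0.0082 for Tgfb2. Leaving out 1 library gave ranges of -0.17 to 0.027 for Tgfb2, -0.12 to 0.17 for Tgfb3, -0.072 to 0.17 for Ltbp3, -0.39 to -0.0106 for Ltbp4, -0.21 to 0.11 for Lrrc32, -0.30 to -0.19 for Tgfb1, -0.40 to -0.14 for Ltbp1, -0.83 to -0.43 for Ltbp2 and 0.25 to 0.47 for Nrros. The edgeR count over all genes was 14 and moved to 27 with no filter, 25 with at least 1 CPM in 5 libraries, 74 with DESeq2, 30 with the prefix as a term, 33 with the mesenchyme mean, 0, 1 and 2 without prefixes 1, 4 and 5, 2 without Het 1-2 and WT 1-4 (highest in muscle markers), and 6 to 22 with 1 library left out (6 without Het 4-2 or Het 5-6, 7 without Het 5-5, 8 without Het 1-2 or WT 1-1, 9 without WT 1-4 and 22 without WT 5-1); the cause was not tested. With the longest transcript as length the mean RPKM was 4.48 for Ltbp3, 2.41 for Tgfb1 and 1.77 for Ltbp1. Of the 6 marker relations past the threshold, 0 passed when values were centred within genotype and prefix. No paired analysis was possible because the labels and columns name no pairs of Het and WT libraries. The prefix, which Het and WT libraries share, was used as a term instead. Counts of 35 to 154 per library limit Lrrc32 and Ltbp2.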
